A study of Rattus norvegicus with 12 samples.

Results

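A group-absent transcript was defined as an Ensembl rat transcript with 0 counts in all 3 rats of at least 1 group and 10 or more counts in all 3 rats of at least 1 other group. Of the 41064 transcripts counted in the nucleus accumbens shell (NAcsh), 156 met both limits and are called members here. A transcript with 10 or more counts in all 3 rats of a group is called present in that group. The members were 0.545% of the 28622 transcripts with at least 1 count in any rat, and 0.963% of the 16195 that were present in some group. The members were thus chosen by their counts in these same 12 libraries, so the pattern of zeros is a description and carries no test.

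The tissue came from 12 male Sprague-Dawley rats, 3 per group, all of which had self-administered cocaine before forced abstinence. The groups were isolated rats after 1 day (IC1D) or 21 days (IC21D) of abstinence and rats in environmental enrichment after 1 day (EE1D) or 21 days (EE21D). Enrichment meant group housing with a running wheel, objects and nesting material, and isolation meant single housing without them. Every rat had a cue reactivity test just before the tissue was taken, the punches from both sides of a rat were pooled into 1 library, and no cocaine-naive group was among these samples. The rats were IC1D A2, A20 and A23, IC21D A9, A24 and A3, EE1D A12, A16 and A27, and EE21D A13, A14 and A1.

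The NAcsh is a ventral striatal region made up mainly of GABAergic projection neurons, and it takes part in the motivation that drug-paired cues evoke. Cue-evoked cocaine seeking grows over weeks of abstinence, which is called incubation, and enrichment during abstinence is an intervention that lowers it. Most genes produce several transcripts that differ in their exons, so a transcript can have no counts while other transcripts of its gene are read. The program that made these counts divided reads that fit several isoforms among them, which leaves the counts of isoforms, and of transcripts that are almost identical, uncertain. In punches of whole tissue, fewer cells of a type and less RNA per cell cannot be told apart. The files do not pair transcripts with gene names, so only members that the study names with an identifier carry one, and cell type markers and other isoforms of the members' genes were not analysed here.

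Total counts per rat ran from 11725831 (A12) to 26975339 (A13). Rat A24 of IC21D stood apart, with 13936 transcripts at 1 or more counts against 19571 to 23306 in the other 11 rats. The 8 most abundant transcripts took 52.1% to 75.6% of a library, which left between 4714969 (A24) and 11364580 (A13) counts for all others. The median of these remaining counts was 6289537 in EE1D, 7375488 in IC21D, 8960961 in IC1D and 9882510 in EE21D. The range of IC1D overlapped those of IC21D and EE1D. The part of these values in the results that follow was not tested.

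The zeros were spread unevenly over the 4 groups. IC21D was at 0 for 87 members (55.8%), EE1D for 64 (41.0%), IC1D for 20 (12.8%) and EE21D for 10 (6.41%). The groups that held the members were the other way round, with 95 present in EE21D, 54 in IC1D, 21 in EE1D and 11 in IC21D. In all, 137 members were at 0 in IC21D or EE1D, and 136 were present in IC1D or EE21D. Leaving out any of the 12 rats raised the number of members, from 237 without A24 to 584 without A9. In the group that lost a rat, 2 rats then sufficed both for absence and for presence. A group that lost a rat needed only 2 rats at 0, so its own number rose. Zeros in the other groups rose too, since presence in the smaller group was easier to reach. Without A1 of EE21D, zeros numbered 32 in EE21D, 162 in IC21D and 131 in EE1D. Such unequal terms gave EE1D more zeros than IC21D without A12 (196 against 109), without A16 (124 against 116) and without A27 (189 against 99). EE1D also had more with both groups at 2 rats, without A24 and A12 together (280 against 149). That alternative was chosen after seeing the data. With all 12 rats the order of the groups was not fixed either. EE1D had more zeros than IC21D when a transcript had to reach 100 counts to be present (18 against 14).

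**Figure D1:**
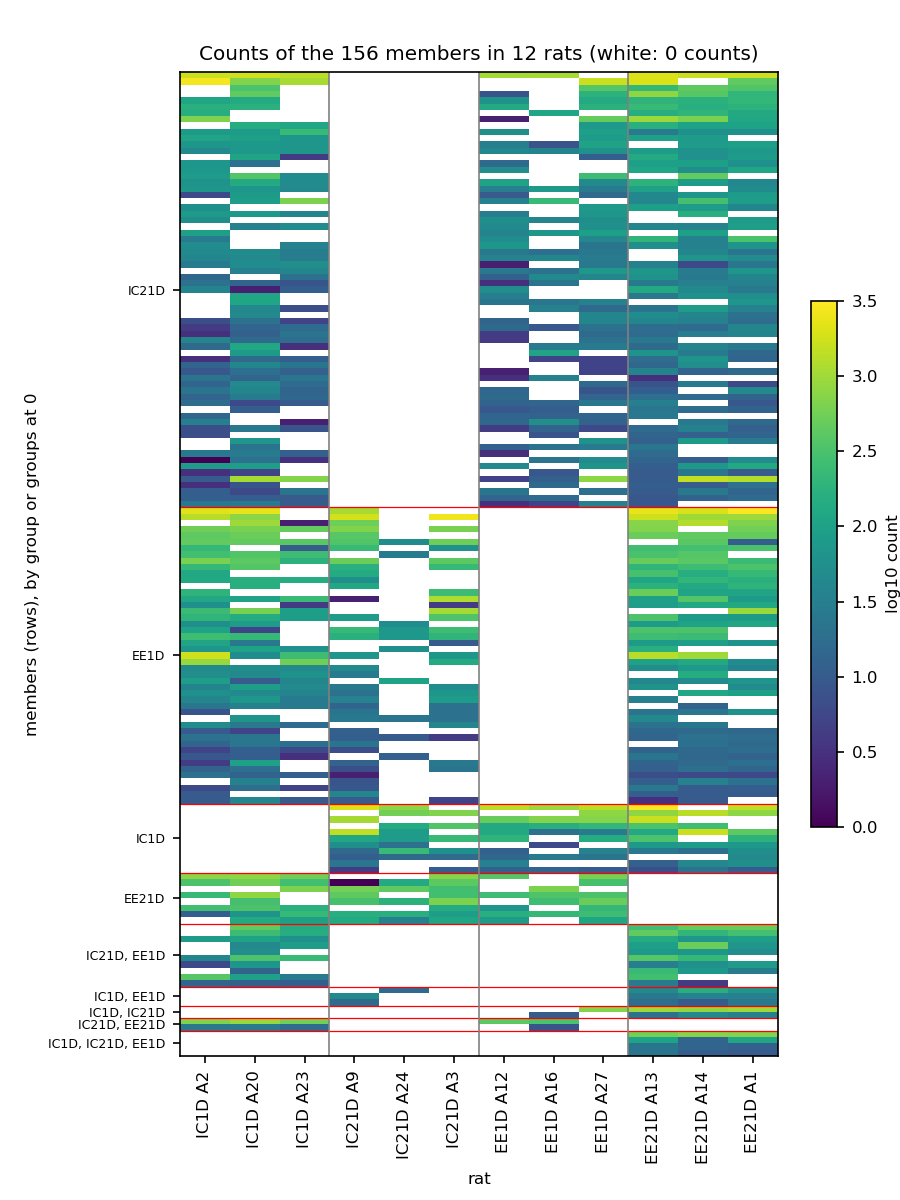
Counts of the 156 members (rows) in the 12 rats (columns), on a log10 colour scale with 0 counts in white. Rows are sorted by the group or groups at 0, and red lines part the 9 sets. Besides the white blocks that define the sets, scattered white cells run through the other groups.

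Most members were missing from a single group. In all, 135 members were at 0 in 1 group, 17 in 2 groups and 4 in 3 groups. The largest set, 69 members (44.2%), was at 0 in IC21D alone, and 47 (30.1%) were at 0 in EE1D alone. IC1D alone accounted for 11 and EE21D alone for 8. Of the sets that joined groups, 10 members were at 0 in IC21D and EE1D, 3 in IC1D and EE1D, 2 in IC1D and IC21D, 2 in IC21D and EE21D, and 4 in IC1D, IC21D and EE1D together. No member was at 0 in both enriched groups. By the limit of 10 or more counts in all 3 rats, 133 members were present in only 1 group, 21 in 2 and 2 in 3. Most still had counts in some rats of other groups, and only 4 had counts in just 3 rats.

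Counts ran low for many members and high for a few. The lowest count among the 3 rats of the group where a member was best represented had a median of 37.5 and ranged from 10 to 1917. It was 100 or more for 41 members and 1000 or more for 2. At the other end, 25 members lay between 10 and 12, and 12 of these lay exactly on the limit of 10. Just outside the limit were 71 transcripts that were at 0 in a whole group and had a lowest count of 7 to 9 in their best group. On the side of absence, 37 transcripts present in a group missed membership because in another group 2 rats were at 0 and the third had 1 to 3 counts.

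**Figure D2:**
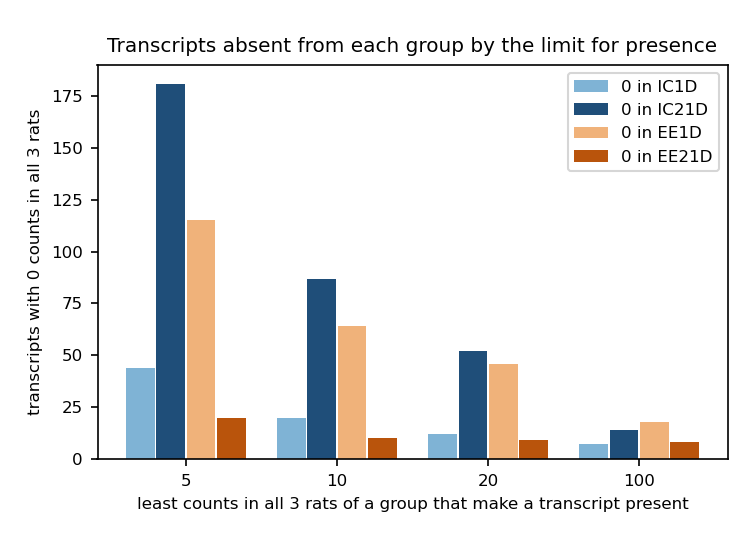
Number of transcripts at 0 counts in all 3 rats of each group (bars), when a transcript counts as present in a group from 5, 10, 20 or 100 counts in all 3 rats. IC21D had the most up to the limit of 20 (52 against 46 for EE1D), and EE1D at 100 (18 against 14).

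Each member was then compared between groups by the counts that chose it. Levels are CPM, the counts of a transcript per 1000000 counts of its library after TMM scaling. A fold against a group at 0 is a lower bound for the 0 only. It does not allow for the spread between the rats where the transcript was present. The fold is the mean CPM where the transcript was present over the level of 3 counts per library in the group at 0. This floor was 0.133 CPM in IC1D, 0.174 in IC21D, 0.173 in EE1D and 0.110 in EE21D. Taking the larger bound where a member had several, the 156 members were at least 2.19-fold to at least 526-fold higher where present, with a median of 15.5. The bound reached 10-fold for 99 members and 100-fold for 24.

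The Enrichment contrast, EE21D against IC21D, held the most members. Of the 15056 transcripts present in EE21D, 58 (0.385%) were at 0 in all IC21D rats, and 4 were present in IC21D and at 0 in EE21D. The CPM of every EE21D rat exceeded that of every IC21D rat for 68 members, and 5 members had the reverse; over all 28622 transcripts these shares were 5.7% and 2.01%. The Incubation contrast, IC21D against IC1D, had the same lean toward loss in IC21D. There, 29 members were present in IC1D and at 0 in IC21D, and 3 the other way. All 3 IC21D rats had lower CPM than all IC1D rats for 47 members and higher CPM for 5, against 5.81% and 2.1% of all transcripts. These contrasts share the IC21D rats, and the rule used both, so nothing is read from these shares.

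In enriched housing the zeros lay at the earlier time. Of the members, 43 were present in EE21D and at 0 in EE1D, and 2 the other way. The CPM of the EE21D rats lay above those of all EE1D rats for 54 members and below for 3, and the same shares of all transcripts were 4.2% and 2.94%. For 5 members every rat was lower with abstinence in isolation and higher with it in enrichment, and for 0 the reverse, beside 0.339% and 0.101% of all transcripts. Between housing conditions at 1 day of abstinence, 25 members were present in IC1D and at 0 in EE1D, and 6 the other way. EE1D rats had lower CPM than every IC1D rat for 36 members and higher for 8, beside 4.63% and 3.45% of all transcripts. The rule used these groups as well, so nothing is read from the shares in these contrasts either. The remaining pairs were EE21D over IC1D with 14 members, EE1D over IC21D with 13, IC1D over EE21D with 6 and IC21D over EE1D with 4.

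**Figure D3:**
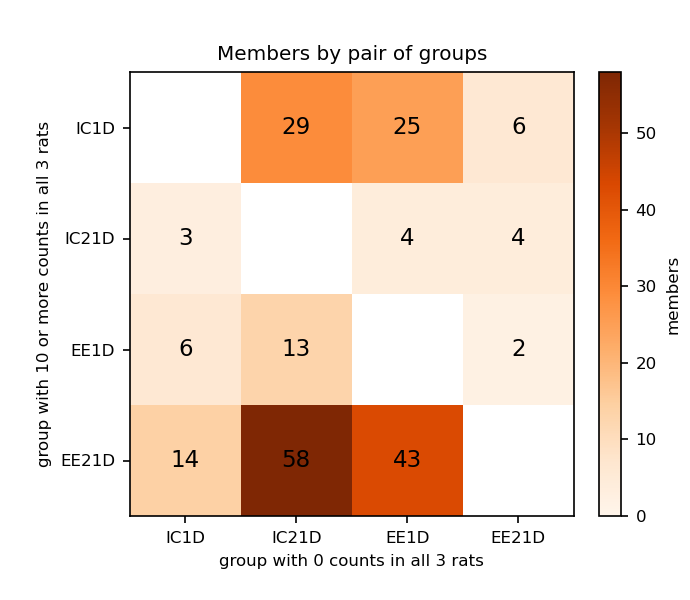
Number of members for each pair of a group where the transcript was present (vertical axis) and a group where it was at 0 (horizontal axis). A member can stand in several cells. The largest cells are EE21D over IC21D (58) and EE21D over EE1D (43), and the smallest is EE1D over EE21D (2).

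Zeros in part of a group leaned the same way among all transcripts that were present in some other group. In IC21D, 21.4% of these had 1 rat at 0, 3.73% had 2 and 0.541% had all 3. The corresponding shares were 6.15%, 1.98% and 0.401% in EE1D, 4.18%, 1.09% and 0.127% in IC1D, and 2.8%, 0.539% and 0.0657% in EE21D. Groups with more single zeros also had more whole-group zeros. By the rule, the transcripts at 0 in all 3 rats are the members themselves. Only the shares with 1 or 2 rats at 0 are new here. In IC21D, A24 had 13936 transcripts detected, against 22059 in A9 and 20383 in A3. The part of A24 in the IC21D shares was not tested. The number of members with at least 1 count ranged from 24 in A24 to 130 in A13. It was 53, 24 and 41 in the IC21D rats A9, A24 and A3, 64, 47 and 70 in the EE1D rats A12, A16 and A27, 109, 116 and 87 in the IC1D rats A2, A20 and A23, and 130, 123 and 119 in the EE21D rats A13, A14 and A1. The ranges of EE1D and IC21D overlapped, and both lay below those of IC1D and EE21D. The rule fixed part of these numbers, since each IC21D rat was at 0 for the 87 members at 0 in IC21D and each EE1D rat for 64, so nothing about depth is read from them. The part of depth in the zeros was not tested.

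**Figure D4:**
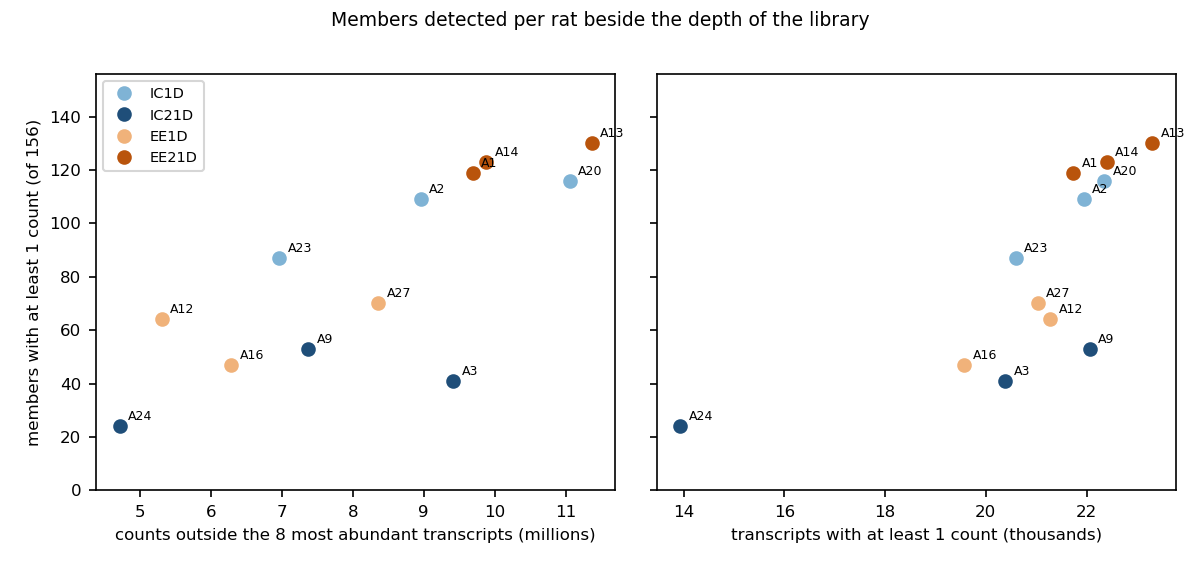
Members with at least 1 count in each rat (vertical axis, of 156) against the counts outside the 8 most abundant transcripts (left, in units of 1000000 counts) and the transcripts detected (right, in units of 1000 transcripts). Rat A24 is lowest on all 3 measures and A13 highest. The rule fixed 87 members at 0 in each IC21D rat, 64 in each EE1D rat, 20 in each IC1D rat and 10 in each EE21D rat.

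Members also switched between 0 and substantial counts within groups that the rule did not set at 0. In 137 members (87.8%) at least 1 group had rats at 0 beside rats with 10 or more counts, in 79 members at least 2 groups did, and in 64 a rat at 0 stood beside a rat with 100 or more. Such a split group occurred in 4520 (27.9%) of the 16195 transcripts present in some group. Of the 1872 values of the members, 889 (47.5%) were 0, 87 (4.65%) were 1 to 9, 567 (30.3%) were 10 to 99 and 329 (17.6%) were 100 or more. Over all transcripts present in some group the shares were 4.31%, 3.39%, 34.9% and 57.4%, so that counts of 1 to 9 were rarer than 0 in both. The rule fixed part of the members' shares: every member needed 3 rats at 0 and 3 rats with 10 or more counts. Nothing is read from the members' shares beside those of all transcripts. Counts were found in 9 rats for 5 members, in 8 for 29, in 7 for 39, in 6 for 35, in 5 for 35, in 4 for 9 and in 3 for 4. Where a member was present, its rats differed by a median coefficient of variation of 29.6% in IC1D, 40.2% in IC21D, 26.7% in EE1D and 36.9% in EE21D. The medians over all transcripts present in those groups were 25.3%, 30.9%, 25.3% and 23.3%. The members' medians rest on 54 members in IC1D, 11 in IC21D, 21 in EE1D and 95 in EE21D. Members had a smaller share of values at 100 or more, and the part of this in the difference was not tested.

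Both members that the study names by identifier were at 0 in IC21D. Camk2d (ENSRNOT00000016026) encodes the delta subunit of calcium/calmodulin-dependent protein kinase II, a kinase that couples calcium entry to phosphorylation of synaptic and nuclear targets. Its counts were 0, 91 and 649 in IC1D, 0 in all IC21D rats, 34, 229 and 0 in EE1D, and 42, 291 and 90 in EE21D. The transcript was thus missing from 1 IC1D rat and 1 EE1D rat as well, and its IC1D rats spanned the widest range. In EE21D it stood at 5.32 ± 5.09 CPM (SD, n = 3), at least 30.5-fold above IC21D, and at least 14-fold without A14. Eif4e2 (ENSRNOT00000026646) encodes a relative of the cap-binding initiation factor eIF4E that binds the mRNA cap and can hold back translation. Its counts were 0, 33 and 49 in IC1D, 0 in IC21D, 46, 0 and 58 in EE1D, and 39, 37 and 89 in EE21D. EE21D was the only group with counts in every rat for either transcript. The level of Eif4e2 there was 2.05 ± 1.22 CPM (SD, n = 3), at least 11.8-fold above IC21D, and at least 7.74-fold without A1. The study also measured both transcripts by RT-qPCR, with transcript-specific primers and more rats per group. It reported increases with enrichment after the longer abstinence, but far smaller ones than from its sequencing. The lower bounds given here therefore describe the counts of these libraries only, and the reason for the gap was not tested.

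Among members at 0 in IC21D, ENSRNOT00000079644 had the highest lowest count among the 3 EE21D rats. Its counts were 1722, 1773 and 1417 in IC1D, 0 in all IC21D rats, 1080, 1116 and 0 in EE1D, and 2058, 1647 and 1693 in EE21D. More than 1000 counts were thus found in 8 of the 12 libraries and none in the other 4, of which 1 was in EE1D. Its level was 71.6 ± 8.04 CPM in IC1D and 65.4 ± 2.67 in EE21D (SD, n = 3 each), at least 411-fold and at least 376-fold above IC21D. ENSRNOT00000091694 was at 0 in all 6 isolated rats. In enriched rats it had 0, 0 and 722 counts in EE1D and 970, 865 and 965 in EE21D, which was 34.1 ± 2.89 CPM (SD, n = 3) and at least 196-fold above IC21D. A single EE1D rat, A27, thus had a count near those of EE21D.

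Absence from EE21D was rarer, and the members at 0 in EE21D alone had higher counts elsewhere by their median. The 8 members at 0 in EE21D alone had a median lowest count of 219.5 in their best group. The medians were 83.0 for members at 0 in IC1D alone, 51.0 for EE1D alone and 26.0 for the 69 at 0 in IC21D alone. The 2 members at 0 in both IC21D and EE21D had lowest counts of 561 and 17. The rule used these counts, so nothing is read from the medians. ENSRNOT00000087025 had 585, 435 and 273 counts in IC21D and 0 in all EE21D rats. In the 1-day groups it was found in 1 rat each, with 646 counts in A23 and 636 in A16. It stood at 25.4 ± 12.9 CPM in IC21D (SD, n = 3), at least 232-fold above EE21D. ENSRNOT00000089644 had 302, 176 and 637 counts in IC21D, 0, 298 and 0 in IC1D, 0, 257 and 508 in EE1D, and 0 in EE21D. That was 18.6 ± 6.73 CPM in IC21D (SD, n = 3), at least 170-fold above EE21D. For both transcripts IC21D was the only group with counts in every rat.

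**Figure D5:**
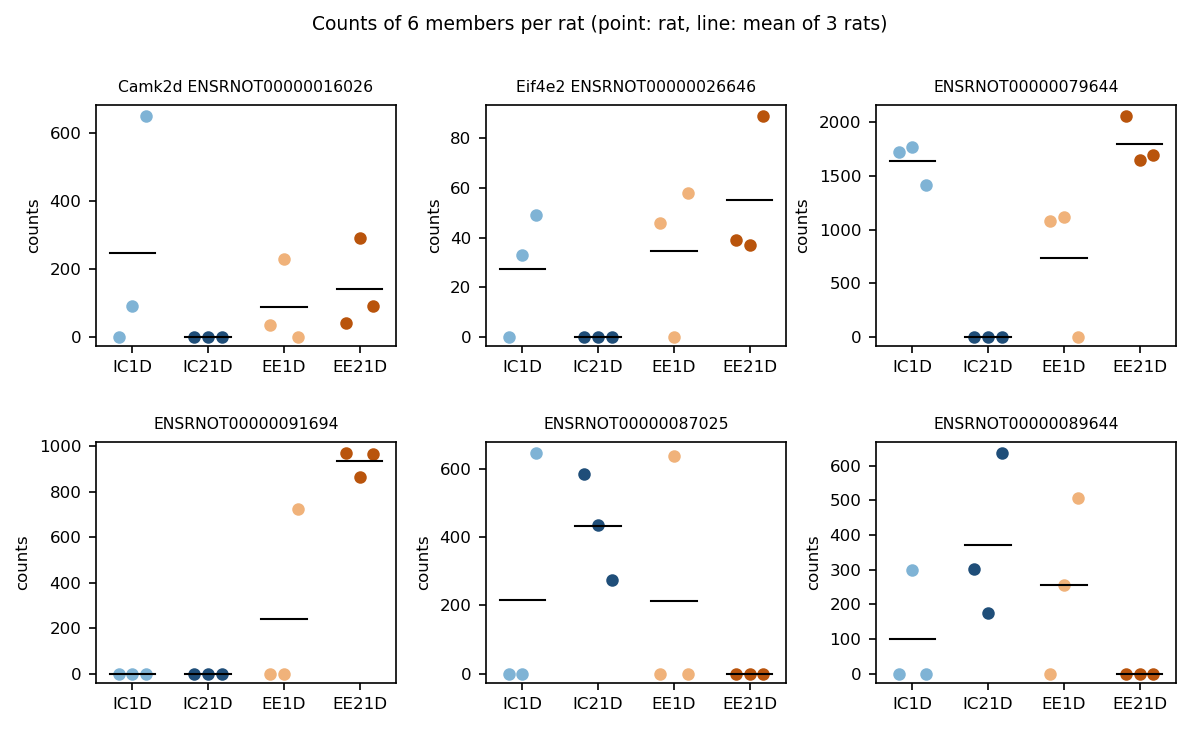
Counts of the 6 members named by identifier in each rat (points) and their group mean (lines), for IC1D, IC21D, EE1D and EE21D. The vertical scale differs between panels. The upper row and ENSRNOT00000091694 are at 0 in IC21D and have counts in every EE21D rat, and the remaining 2 transcripts are at 0 in EE21D.

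Other members, chosen after their values were seen, show the range of patterns and are described without an identifier. Only 5 members had counts in all 9 rats of the groups not at 0. One was at 0 in EE21D and had 11, 65 and 219 counts in IC1D, 163, 157 and 89 in IC21D, and 154, 215 and 257 in EE1D. The other 4 were at 0 in IC21D. The steadiest of them had 48, 74 and 71 counts in IC1D, 43, 37 and 60 in EE1D, and 86, 62 and 74 in EE21D, or 2.86 ± 0.911, 2.60 ± 0.354 and 2.69 ± 0.287 CPM (SD, n = 3 each). Its group levels outside IC21D differed by less than the spread between rats. The most variable had 10, 1070 and 716 counts in IC1D, 5, 12 and 816 in EE1D, and 10, 1509 and 1266 in EE21D. The remaining pair stayed at 41 counts or fewer in every rat.

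A total of 4 members were found in EE21D and nowhere else. The first had 594, 741 and 719 counts there, or 25.2 ± 4.86 CPM (SD, n = 3). The others were lower, with 106, 14 and 118 counts, with 23, 14 and 12, and with 23, 11 and 10. No member was found in a single group other than EE21D. A further 3 members were at 0 in both 1-day groups and present in EE21D, each with counts in 1 IC21D rat; the highest had 46, 162 and 70 counts in EE21D and 17 in A24. In all, 6 members were at 0 in every isolated rat: the 4 found in EE21D alone, ENSRNOT00000091694, and 1 more with 21, 47 and 34 counts in EE21D and 10 in 1 EE1D rat.

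A single member crossed housing and abstinence fully. It had 86, 107 and 58 counts in IC1D and 143, 66 and 97 in EE21D, and 0 in all rats of IC21D and EE1D. Its levels were 3.56 ± 0.348 CPM in IC1D and 3.67 ± 1.11 in EE21D (SD, n = 3 each), a difference smaller than the spread between rats. No member had the opposite arrangement. A pair of members was at 0 in both 21-day groups. One had 674, 903 and 561 counts in IC1D and 417, 325 and 0 in EE1D, and the other had 25, 28 and 17 in IC1D and 0, 8 and 0 in EE1D. Both were steady in IC1D, at 30.6 ± 1.16 and 1.00 ± 0.0845 CPM (SD, n = 3 each).

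Members at 0 in one group often missed rats of the other groups too. Of the 64 at 0 in EE1D, 44 had counts in every EE21D rat, 28 in every IC1D rat and 5 in every IC21D rat. Of the 87 at 0 in IC21D, 61 had counts in every EE21D rat, 41 in every IC1D rat and 18 in every EE1D rat. The first member at 0 in EE1D, which had the highest lowest count of all members, had 2130, 2380 and 0 counts in IC1D, 1103, 0 and 0 in IC21D, and 2390, 1917 and 3006 in EE21D. It stood at 89.5 ± 23.6 CPM in EE21D (SD, n = 3), at least 519-fold above EE1D. The second had 1314, 791 and 0 counts in IC1D, 1870, 0 and 2701 in IC21D, and 1721, 1008 and 972 in EE21D. An exception was the sixth, present in both isolated groups with 453, 460 and 407 counts in IC1D and 350, 51 and 540 in IC21D. In EE21D it had 0, 396 and 11 counts. Rat A24 was at 0 for the first 5 of this set, and A9 had counts for all of the first 7.

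At 0 in IC1D, the leading member had 2000, 791 and 0 counts in IC21D, 1371, 938 and 1371 in EE1D, and 2973, 0 and 1428 in EE21D. Its level in EE1D was 70.2 ± 20.3 CPM (SD, n = 3), at least 526-fold above IC1D and the largest bound of any member. The second of this set had 0, 565 and 688 counts in IC21D, 0, 0 and 807 in EE1D, and 839, 1368 and 801 in EE21D. Of the 11 members of the set, 6 were present in EE1D, 5 in EE21D and 3 in IC21D. The first of the members at 0 in EE21D alone had 777, 809 and 553 counts in IC1D, 0, 0 and 735 in IC21D, and 379, 0 and 626 in EE1D. It was at least 281-fold higher in IC1D than in EE21D, at 30.8 ± 2.82 CPM (SD, n = 3).

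The tests across all transcripts place these differences against the spread between rats. In edgeR's quasi-likelihood test with Benjamini-Hochberg adjustment over 28622 transcripts, none of the 156 members passed an adjusted p-value of 0.05 in any contrast, and neither did any other transcript (0%). The number of calls over all transcripts changed when single rats were left out: without A9 it was 19 for each of Incubation, Enrichment and the interaction, without A3 it was 8 for each, and without A12, A14, A16, A23, A24 or A27 it reached 1 to 4 in at least 1 contrast. The members' smallest adjusted p-values were 0.0576 for Incubation, 0.0614 for Enrichment, 0.454 for abstinence in enriched housing, 0.465 for housing at 1 day and 0.0944 for the interaction of housing and abstinence. At an unadjusted p-value of 0.05, the members called numbered 76 (13 higher and 63 lower, background 4.47%) for Incubation and 84 (76 higher and 8 lower, background 3.33%) for Enrichment. For abstinence in enriched housing there were 69 (background 2.02%), for housing at 1 day 58 (background 2.75%) and for the interaction 105 (background 5.15%). The rule used these contrasts, and nothing is read from the members' shares.

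The Wald test of DESeq2, the tool the study used, gave calls where edgeR gave none. At an adjusted p-value of 0.05, it called 37 members for Incubation (6 higher and 31 lower, background 0.569%) and 43 for Enrichment (36 higher and 7 lower, background 0.531%). It called 34 for abstinence in enriched housing (26 higher and 8 lower, background 0.433%), 29 for housing at 1 day (6 higher and 23 lower, background 0.447%) and 47 for the interaction (background 0.727%). These backgrounds are shares of all 28622 transcripts, and DESeq2 gave no adjusted p-value for many of them. It gave one to 20063 for Incubation, 19520 for Enrichment and 19520 for abstinence in enriched housing. For housing at 1 day it gave one to 22823, and for the interaction to 21159. Members made up 22.7% of the 163 transcripts that DESeq2 called for Incubation and 28.3% of the 152 for Enrichment. They were 27.4% of the 124 calls for abstinence in enriched housing, 22.7% of the 128 for housing at 1 day and 22.6% of the 208 for the interaction. The rule chose the members by counts in these same groups. Nothing is therefore read from their calls and shares, or from the p-values of the named members that follow. For the Enrichment contrast, the adjusted p-values of ENSRNOT00000079644 were 0.968 by edgeR and 1.16e-07 by DESeq2, and those of ENSRNOT00000089644 were 0.968 and 9.06e-16. ENSRNOT00000087025 had 0.968 and 3.85e-07, and DESeq2 gave no adjusted p-value for ENSRNOT00000091694. Camk2d and Eif4e2 passed in neither tool, with adjusted p-values for Enrichment of 0.0591 and 0.0714 by DESeq2 and 0.968 for both by edgeR. In the Incubation contrast, Camk2d had an adjusted p-value of 0.843 by edgeR and 0.0120 by DESeq2, although 1 of its IC1D rats was at 0 like the IC21D rats.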

How the data were processed

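RNA from NAcsh punches of 12 rats was sequenced, 3 per group. The authors aligned reads with HISAT2 2.1.0 to the Ensembl rat genome, assembled and merged transcripts with StringTie 1.3.3.1 and tested with DESeq2. They deposited whole-number counts per Ensembl transcript for each rat, without normalization. How coverage became counts is not given in the sources used here. Groups were taken from the sample labels. The membership rule was applied to the deposited counts. TMM scaling and the quasi-likelihood test used edgeR 4.0.16 in R 4.3.3, over transcripts with at least 1 count summed over rats, with 1 coefficient per group. DESeq2 1.42.0 was an alternative. Scripts were tested on simulated data. A level of 3 counts was the floor, which covers counting error only. The smallest two-sided p that exact permutation of 3 rats against 3 allows is 0.1. Named transcripts were those the study names with an identifier, and the 2 highest at 0 in IC21D and the 2 highest at 0 in EE21D by their lowest count in the other of these groups. Members and lists were chosen with earlier results of these data known. Gene names, marker lists, other isoforms, sequences and regroupings of rats were not analysed here.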

Additional observations from a re-analysis of the deposited data

Results flagged for a closer look

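For 5 members, abstinence ran in opposite directions by housing: the CPM of every IC21D rat was lower than that of every IC1D rat, and the CPM of every EE21D rat was higher than that of every EE1D rat. No member had the reverse. Over all 28622 transcripts, 0.339% had this pattern and 0.101% the reverse. The 5 were chosen for being at 0 in IC21D, EE1D or both, which favors this direction, so nothing is read from the 5 against 0. The difference between the effects was tested as the interaction of housing and abstinence. In edgeR's quasi-likelihood test its adjusted p-values for the 5 ran from 0.0944 to 0.9, and DESeq2 called all 5. The rule used these groups, so nothing is read from these p-values either. The smallest edgeR value belonged to the member that was at 0 in IC21D and EE1D and present in IC1D and EE21D. Of the other 4, 2 were at 0 in IC21D and 2 in EE1D. One of those at 0 in EE1D had 21, 13 and 11 counts in IC1D, 2, 0 and 0 in IC21D, and 7, 6 and 6 in EE21D, close to the limit of presence.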

How the results depend on the processing

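No paired analysis was possible because the labels give the groups no shared replicate numbers. With presence set at 5 counts the total was 312, and IC1D, IC21D, EE1D and EE21D were at 0 for 44, 181, 115 and 20. From 20 counts the total was 103, with 12 for IC1D and 52 for IC21D, and from 100 counts it was 41, with 7, 14 and 18 for IC1D, IC21D and EE1D. With presence set at 0.682 CPM, IC21D had 57. The total without 1 rat was 293 (A2), 259 (A20), 286 (A23), 584 (A9), 237 (A24), 317 (A3), 324 (A12), 247 (A16), 294 (A27), 255 (A13), 260 (A14) and 306 (A1), and all 156 members were among them each time, since the rule then asks for fewer rats. The groups at 0 then ranged from 25 to 97 for IC1D, 99 to 511 for IC21D (the highest without A9), 71 to 196 for EE1D and 19 to 45 for EE21D. An alternative chosen after seeing the data, without A24 and A12 together, gave 451, with 54, 149, 280 and 37. Calls over all transcripts, in the order Incubation, Enrichment, abstinence in enriched housing, housing at 1 day and interaction, were 1279, 954, 578, 786 and 1474 at an unadjusted p-value of 0.05 and 163, 152, 124, 128 and 208 by DESeq2. After edgeR's filterByExpr they were 1 for Incubation, 1 for Enrichment and 2 for the interaction, and the cause was not tested. Without 1 rat they ranged from 0 to 19 for Incubation, Enrichment and the interaction (19 without A9), from 0 to 2 for abstinence in enriched housing and from 0 to 4 for housing at 1 day (4 without A23). DESeq2 size factors, upper-quartile scaling and a filter of at least 10 counts in every rat, which removes every member, gave 0 calls in edgeR. Of 48 alternative values of the lower-bound folds of the named members, 41 moved by less than the spread between rats. A count of 0 covers the deposited depth only: a transcript at a level under the floor of 3 counts could be missed.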
